A study of Mus musculus with 24 samples.

Results

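The venous and lymphatic identity genes of this report are Nr2f2, Lyve1, Prox1, Pdpn, Flt4, Stab1, Foxf2, Foxc2 and Ccl21a, 9 mouse genes chosen by name and read through the gene symbols of the array's platform annotation. Of these, 8 had at least 1 probe set of their own (18 probe sets in all), out of 18193 genes and 34945 probe sets with a single symbol. Ccl21a, a chemokine of lymphatic endothelium, is covered by 1 probe set that carries 9 symbols, so its level could not be given apart from its relatives. Retinal endothelial cells were immuno-purified from adult mice of both sexes on a mixed C57Bl6/129 background. All cells, wild type cells included, carry the Immorto transgene, a temperature-sensitive SV40 large T antigen under an interferon-responsive promoter, and RNA was made at 37 °C without interferon gamma. The 8 groups of 3 arrays were Fz4-/- and wild type cells on Matrigel (6 hours, after 24 hours of starvation, in 1% serum), Fz4-/- and wild type cells on gelatin, and Fz4-/- and wild type cells co-cultured with Norrin-expressing or with control HEK293 cells, a human embryonic kidney line. RNA of the co-cultures was about equal parts mouse and human. The labels do not give how many cell lines stand behind a genotype or whether the replicates are separate cultures, so the spread behind each p-value may be technical, and genotype and line of origin cannot be told apart.

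Endothelial cells take on arterial, venous or lymphatic identity. Nr2f2 (COUP-TFII) is a nuclear receptor that holds venous identity and is needed with Prox1, the master regulator of lymphatic fate, for lymphatic specification. Flt4 (VEGFR-3) is the receptor of the lymphangiogenic factors Vegfc and Vegfd. Lyve1, a hyaluronan receptor, and Stab1, a scavenger receptor, are found on lymphatic and sinusoidal endothelium and on some macrophages. Pdpn is a mucin-type surface protein of lymphatic endothelium. The forkhead factor Foxc2 is needed for lymphatic valves, and its relative Foxf2 acts in pericytes and endothelium of brain vessels. The retina has no lymphatic vessels. Fz4 (gene Fzd4) is the receptor through which Norrin signals to beta-catenin in retinal vessels.

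Promoter windows (250 bases before to 50 after the start site, RefSeq, GRCm38.p6) were matched for 7 of the 9 genes. Those of Nr2f2, Stab1 and Foxf2 are shown because these genes were higher together in Fz4-/- single cultures, with Lyve1 and Foxc2. Capitals mark matches, on either strand, to the TCF/LEF core CTTTGA, the SoxF core ACAAT or the COUP-TF core AGGTCA.
Nr2f2, chr7:70366697-70366996, minus strand: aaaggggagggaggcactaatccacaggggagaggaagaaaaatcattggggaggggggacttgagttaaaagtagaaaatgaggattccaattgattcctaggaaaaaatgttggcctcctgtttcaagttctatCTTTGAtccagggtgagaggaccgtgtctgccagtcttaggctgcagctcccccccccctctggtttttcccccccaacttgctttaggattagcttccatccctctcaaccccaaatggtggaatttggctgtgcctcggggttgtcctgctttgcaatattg
Stab1, chr14:31168592-31168891, minus strand: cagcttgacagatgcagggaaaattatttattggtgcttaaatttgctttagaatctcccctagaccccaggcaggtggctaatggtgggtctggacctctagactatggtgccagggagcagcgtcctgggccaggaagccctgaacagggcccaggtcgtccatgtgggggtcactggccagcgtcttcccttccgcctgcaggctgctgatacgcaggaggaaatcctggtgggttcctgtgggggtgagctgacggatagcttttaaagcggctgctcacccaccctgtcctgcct
Foxf2, chr13:31625566-31625865, plus strand: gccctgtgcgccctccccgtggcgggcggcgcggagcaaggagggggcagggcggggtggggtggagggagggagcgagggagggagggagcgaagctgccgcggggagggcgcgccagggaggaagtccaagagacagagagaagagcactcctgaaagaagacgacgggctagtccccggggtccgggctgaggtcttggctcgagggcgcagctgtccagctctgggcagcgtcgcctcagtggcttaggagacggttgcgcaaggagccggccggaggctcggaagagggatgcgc
The Nr2f2 window held 1 match, to the TCF/LEF core, at position -114 from the start site. The Stab1 and Foxf2 windows held none of the 3 motifs. Of the matched windows not shown, that of Pdpn held the SoxF core at -168 and the COUP-TF core at -34. Those of Prox1, Flt4 and Ccl21a held none. Of 32851 mouse promoter windows of the same length (300 bases), 16% held the TCF/LEF core, 31% the SoxF core and 16.3% the COUP-TF core. A match is a description of letters, not of binding.

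The deleted gene was checked against the labels. Fzd4 averaged 5.06 ± 0.44 in Fz4-/- cells and 8.70 ± 0.35 in wild type cells on gelatin, and 4.89 ± 0.27 in Fz4-/- cells and 8.63 ± 0.06 in wild type cells on Matrigel (log2 RMA signal, SD, n = 3 each). In the co-cultures it averaged 2.82 and 2.76 in the Fz4-/- groups and 6.24 and 6.39 in the wild type groups. RMA is the normalization the authors used, and all levels here are log2 values of a probe set's signal. All 18 genes of the pan-endothelial list averaged above the median gene of the array in every single-culture group. Of the 12 macrophage markers, 11 lay below the median gene in 12 of 12 single-culture arrays, the exception being Cd68. The median gene lay between 6.19 and 6.42 in single cultures, between 4.19 and 4.31 in Fz4-/- co-cultures and between 4.44 and 4.50 in wild type co-cultures. The genotypes' co-cultures therefore sit on different scales that coincide with genotype, and the genotype difference in co-culture was given as levels with no test. In 7 of the 8 groups replicate 1 lay farther from replicates 2 and 3 than these lay from each other.

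Set against the median gene of the same array, Flt4, Lyve1, Stab1 and Nr2f2 read above it in 12 of 12 single cultures, and Foxf2, Foxc2, Pdpn and Prox1 read below it in 12 of 12. A reading depends on the probes as well as on the RNA, so no order between genes is drawn. Prox1 was below the median in 24 of 24 arrays, at 3.27 to 3.92 in single cultures and 2.71 to 3.36 in co-cultures. Pdpn was also below the median in 24 of 24 arrays, at 4.29 to 5.19 in single cultures and 3.05 to 4.40 in co-cultures. The shared chemokine probe set that includes Ccl21a read 4.18 to 4.90 in single cultures and 4.54 to 5.43 in co-cultures. The readings of Prox1 stayed below the median gene in every group. Those of Lyve1, Flt4 and Stab1 were above it in every single culture. Whether RNA levels differ in that way between these genes was not tested. The plot of levels in single cultures shows all 8 genes.

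**Figure D1:**
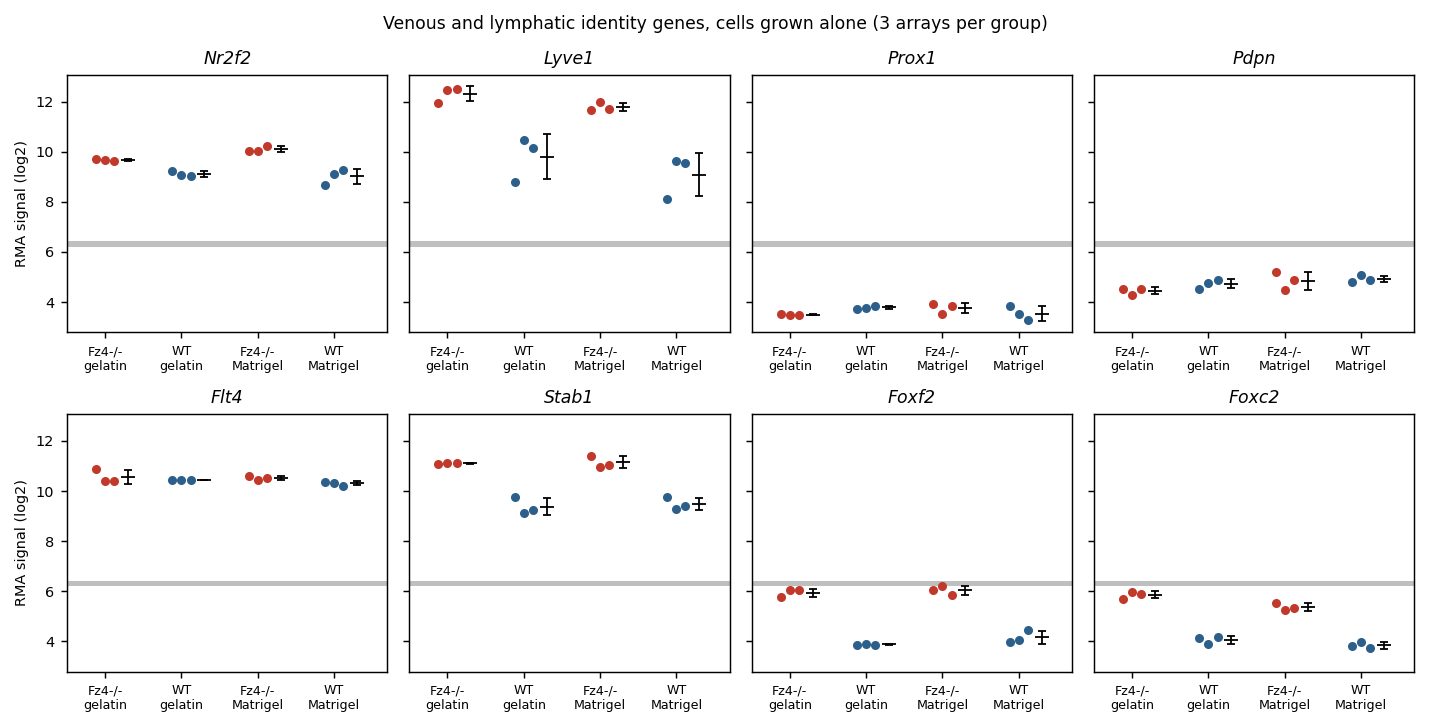
Log2 RMA signal of the 8 listed genes in single cultures, 3 arrays per group (points) with mean and SD. Grey bands give the range of the median gene of the arrays. Lyve1, Stab1, Nr2f2, Foxf2 and Foxc2 lie higher in both Fz4-/- groups, and Prox1, Pdpn and Flt4 did not pass the test in either genotype comparison.

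On gelatin, 5 of the 8 measured genes were higher in Fz4-/- cells than in wild type cells and none was lower, against 14.9% of all genes passing the same test in either direction, 7.21% as higher and 7.73% as lower. The median log2 difference of the 8 genes was 1.15, against -0.00 over all genes. Lyve1, Foxf2, Foxc2, Stab1 and Nr2f2 were the 5, with differences between 0.56 and 2.50, while Prox1, Pdpn and Flt4 did not pass. On Matrigel the 5 again passed, with a median of 1.30 over the 8 genes against 0.02 over all genes, 15.7% of all genes passing, 6.91% as higher and 8.77% as lower. The comparisons used limma on 12 single-culture arrays, with p-values adjusted over all 18193 genes and a threshold of 0.05.

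Lyve1, which codes for a hyaluronan receptor, read 11.96, 12.47 and 12.50 in Fz4-/- cells on gelatin, against 8.80, 10.47 and 10.16 in wild type cells on gelatin. Replicate 1 of the wild type cells was the lowest, and the groups did not overlap, which also held for 32.6% of all genes. The difference was 2.50 ± 0.44 (SE, adjusted p = 0.00272), a 5.67-fold higher signal in Fz4-/- cells. On Matrigel Lyve1 read 11.67, 11.98 and 11.69 in Fz4-/- cells, against 8.10, 9.64 and 9.54 in wild type cells, with a difference of 2.69 ± 0.44 (adjusted p = 0.00167). The second Lyve1 probe set gave 2.47 ± 0.26 on gelatin (adjusted p = 8.98e-05 among all probe sets) and 2.56 on Matrigel.

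Stab1, a scavenger receptor of sinusoidal and lymphatic endothelium, read 11.09, 11.12 and 11.13 in Fz4-/- cells on gelatin, against 9.76, 9.13 and 9.23 in wild type cells. The groups lay far apart relative to their spread, with a difference of 1.74 ± 0.18 (adjusted p = 4.74e-05). On Matrigel it read 11.42, 10.97 and 11.06 in Fz4-/- cells and 9.75, 9.28 and 9.39 in wild type cells, a difference of 1.67 ± 0.18 (adjusted p = 6.84e-05). Lyve1 and Stab1 are also macrophage genes, so the macrophage list was set beside them. None of its 12 genes passed by limma in either genotype comparison, against 14.9% of all genes on gelatin and 15.7% on Matrigel. An unadjusted p under 0.05 was found for 0 of the 12, against 26.5% of all genes on gelatin and 28% on Matrigel. Its summed signal is weighted to high readings such as that of Cd68. As log2 of the sum, it was on gelatin 8.58 to 9.72 in Fz4-/- cells and 8.95 to 10.25 in wild type cells. On Matrigel it was 8.77 to 9.68 in Fz4-/- cells and 9.09 to 10.31 in wild type cells. The 11 markers other than Cd68 read between 2.22 and 6.16 in single cultures.

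Foxf2, a forkhead factor of brain vessels, read 5.76, 6.03 and 6.05 in Fz4-/- cells on gelatin, against 3.86, 3.91 and 3.86 in wild type cells. Both groups were tight and apart, with a difference of 2.07 ± 0.14 (adjusted p = 1.76e-06), or 4.20-fold. On Matrigel it read 6.04, 6.22 and 5.86 in Fz4-/- cells and 3.96, 4.05 and 4.46 in wild type cells, a difference of 1.89 ± 0.14 (adjusted p = 3.96e-06). A second Foxf2 probe set read 0.06 and 0.04 higher in the same comparisons and did not pass. Foxc2, a forkhead factor of lymphatic valves, read 5.71, 5.97 and 5.91 in Fz4-/- cells on gelatin, against 4.13, 3.89 and 4.16 in wild type cells. That was a difference of 1.80 ± 0.11 (adjusted p = 1.17e-06). On Matrigel Foxc2 read 5.53, 5.25 and 5.35 in Fz4-/- cells and 3.80, 3.99 and 3.72 in wild type cells, 1.54 ± 0.11 apart (adjusted p = 4.58e-06). Both genes were below the median gene in every array, so these changes are of low signals. In bulk RNA, fewer cells with a gene and less RNA of it per cell cannot be told apart.

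Nr2f2, the venous nuclear receptor, read 9.72, 9.68 and 9.63 in Fz4-/- cells on gelatin, against 9.24, 9.09 and 9.02 in wild type cells, a difference of 0.56 ± 0.13 (adjusted p = 0.0144). On Matrigel it read 10.01, 10.03 and 10.23 in Fz4-/- cells and 8.69, 9.12 and 9.26 in wild type cells, a difference of 1.07 ± 0.13 (adjusted p = 0.000224). The groups did not overlap in either comparison, which also held for 32.6% of all genes on gelatin and 32.7% on Matrigel. Of the 6 Nr2f2 probe sets, 3 were higher on gelatin and 4 on Matrigel, and none was lower, with differences from -0.06 to 0.97 on gelatin and from 0.18 to 1.59 on Matrigel. The gelatin call was lost when wild type replicate 2 (adjusted p = 0.0517) or wild type replicate 3 (adjusted p = 0.0610) was left out. The plot of Nr2f2 by probe set shows the levels.

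**Figure D2:**
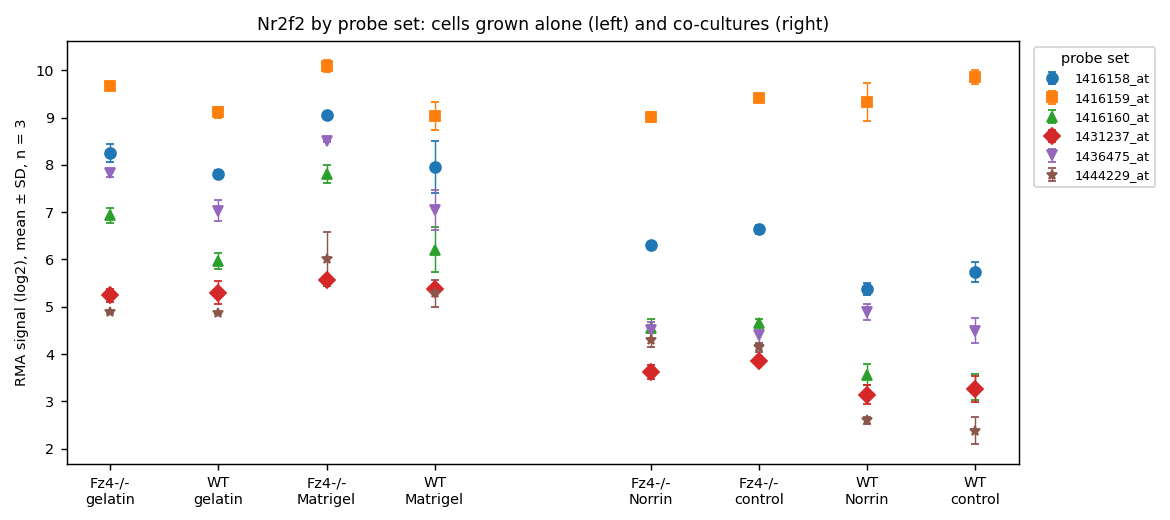
Log2 RMA signal of the 6 Nr2f2 probe sets, mean and SD of 3 arrays per group, with single cultures on the left and co-cultures on the right. The probe set that stands for the gene (squares) stays between 9.01 and 9.85 in co-cultures, where the other 5 read lower than in single cultures.

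Flt4, the VEGF-C receptor, read 10.88, 10.39 and 10.40 in Fz4-/- cells on gelatin and 10.43, 10.45 and 10.45 in wild type cells. Its difference was 0.11 (95% interval -0.16 to 0.38, adjusted p = 0.647), and on Matrigel it was 0.21 (-0.05 to 0.48, adjusted p = 0.297). Prox1 differed by -0.30 on gelatin (-0.60 to 0.00, adjusted p = 0.195) and by 0.21 on Matrigel (-0.09 to 0.51, adjusted p = 0.361). Another Prox1 probe set read 0.56 ± 0.14 higher in Fz4-/- cells on Matrigel (adjusted p = 0.0235), at 2.81 in Fz4-/- cells against 2.24 in wild type cells. Pdpn differed by -0.28 on gelatin (-0.64 to 0.08, adjusted p = 0.327) and by -0.08 on Matrigel (-0.44 to 0.28, adjusted p = 0.819). The arrays of the genotypes did not overlap for Prox1 on gelatin or for Flt4 on Matrigel, though neither passed. A p above the threshold does not show that these genes were alike in both genotypes.

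The wider lists hold some of the 8 genes themselves, and their counts stand against 7.21% of all genes higher and 7.73% lower on gelatin, and 6.91% higher and 8.77% lower on Matrigel. In the venous list of 14 genes, 5 passed as higher and 1 as lower on gelatin (median 0.24), with the same counts on Matrigel (median 0.19). Selp, a leukocyte adhesion receptor of venules, was 3.30 ± 0.15 higher on gelatin and 4.33 ± 0.15 higher on Matrigel in Fz4-/- cells. Nr2f1, the paralogue of Nr2f2, was 1.83 ± 0.15 higher on gelatin and 1.05 ± 0.15 higher on Matrigel. The lower gene, named here after its value was seen, was Vcam1, a leukocyte adhesion molecule, at -0.90 on gelatin and -0.78 on Matrigel. In the lymphatic list, 23 of 25 genes were measured, with 5 higher and 1 lower on gelatin and 6 higher and 1 lower on Matrigel. Thy1, a surface glycoprotein, was 4.32 ± 0.22 higher on gelatin and Tbx1, a T-box factor upstream of Flt4 in mouse lymphatics, was -2.86 ± 0.27. Of the 13 genes of the VEGF-C axis, 1 was higher and 2 were lower on gelatin, with Nrp2, a co-receptor, at 2.38 ± 0.26 and Ccbe1, a VEGF-C maturation factor, at -1.87 ± 0.26. In the arterial list of 15 genes none was higher and 6 were lower on gelatin, with 1 higher and 7 lower on Matrigel. In the pan-endothelial list of 18 genes, 6 were higher and 0 lower on gelatin (median 0.11), with the same counts on Matrigel (median 0.23). A higher signal in Fz4-/- cells was thus not particular to the venous and lymphatic lists. The fibroblast list moved with the genotype too, with 4 of 10 lower on gelatin and 5 of 10 lower on Matrigel. Its summed signal on gelatin was 9.78 to 10.37 in Fz4-/- cells and 12.38 to 12.65 in wild type cells. On Matrigel it was 10.03 to 10.40 in Fz4-/- cells and 12.21 to 12.73 in wild type cells. S100a4 was -2.69 ± 0.18 and Twist1 -3.11 ± 0.29 on gelatin. The part of this list in the results was not tested.

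**Figure D3:**
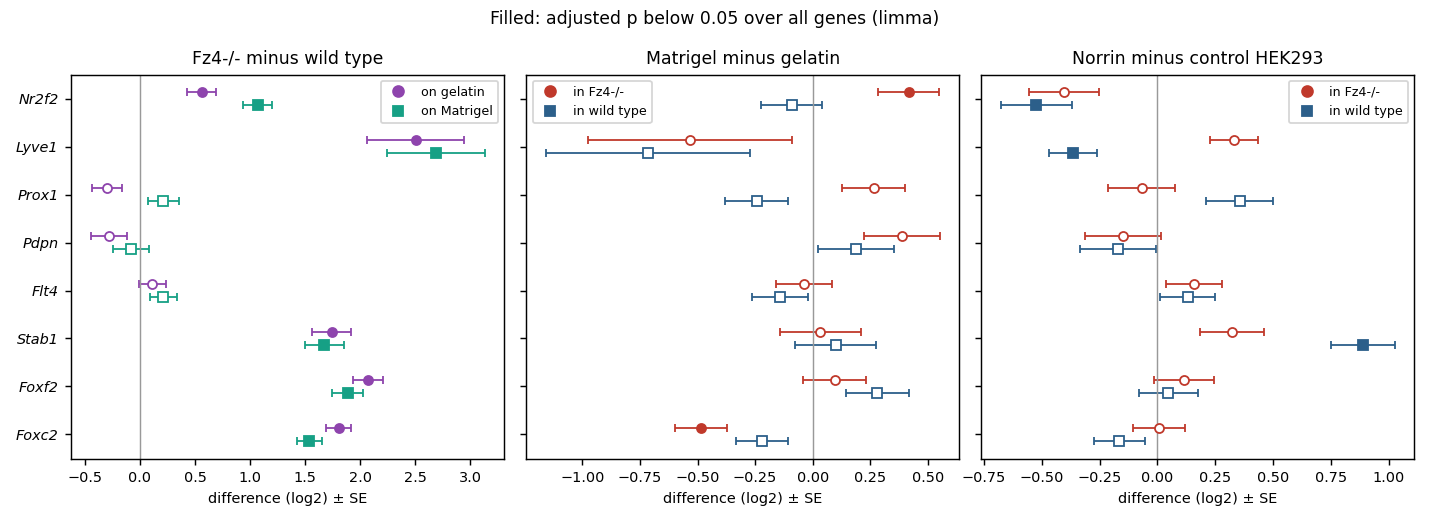
Log2 difference of each listed gene with its standard error in each comparison. The 5 genes higher in Fz4-/- cells on gelatin are also higher on Matrigel, and the Norrin difference past the threshold as higher is that of Stab1 in wild type co-cultures, at 0.89. Filled marks passed the test.

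On Matrigel against gelatin, none of the 8 genes passed by limma in wild type cells (18.4% of all genes did, and 0 of the 8 had an unadjusted p under 0.05, against 32.5% of all genes), and in Fz4-/- cells 1 rose and 1 fell (19.7% of all genes passed, 7.91% as higher and 11.8% as lower). Nr2f2 was 0.42 ± 0.13 higher on Matrigel in Fz4-/- cells (adjusted p = 0.0460), and 5 of its 6 probe sets passed, with differences from 0.32 to 1.13. Foxc2 fell in the same cells, at -0.48 ± 0.11 (adjusted p = 0.0127). Lyve1 differed by -0.53 ± 0.44 in Fz4-/- cells (adjusted p = 0.439) and by -0.72 ± 0.44 in wild type cells (adjusted p = 0.295). No listed gene differed between genotypes in its Matrigel response by limma (0.0165% of all genes did, and 2 of the 8 had an unadjusted p under 0.05, against 4.56% of all genes). Nr2f2 differed by 0.51 ± 0.19 (95% interval 0.10 to 0.92), and Prox1 by 0.51 (0.08 to 0.93). The Nr2f2 call in Fz4-/- cells was lost without any 1 of the 3 Fz4-/- Matrigel arrays, any 1 of the 3 Fz4-/- gelatin arrays, wild type Matrigel replicate 2, or wild type gelatin replicate 2 or 3 (adjusted p from 0.0562 to 0.143). The Foxc2 call was lost without Fz4-/- Matrigel replicate 2 (adjusted p = 0.0528) or Fz4-/- gelatin replicate 2 (adjusted p = 0.0533). The second Foxf2 probe set, which read near the bottom of the array, was -0.50 in Fz4-/- cells (adjusted p = 0.0212) and -0.48 in wild type cells (adjusted p = 0.0270). Among the pathway genes, Vegfd, a ligand of Flt4, was 1.41 ± 0.18 higher on Matrigel in Fz4-/- cells and 1.13 ± 0.18 higher in wild type cells. Selp was 0.95 ± 0.15 higher on Matrigel in Fz4-/- cells, where Nr2f1 fell, at -0.67 ± 0.15.

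In wild type co-cultures, 1 listed gene was higher and 2 were lower with Norrin-expressing than with control HEK293 cells, against 9.57% of all genes passing in either direction, 5.39% as higher and 4.18% as lower. Stab1 read 6.25, 6.81 and 6.65 with Norrin and 5.85, 5.47 and 5.72 with control HEK293 cells, a difference of 0.89 ± 0.14 (adjusted p = 0.000320). Its groups did not overlap, which also held for 21.4% of all genes. Beside it, 14 of 18 pan-endothelial genes were higher in the same comparison, with a median of 0.82 against -0.02 over all genes, and their summed signal was 12.30 to 12.64 with Norrin-expressing and 11.40 to 11.68 with control HEK293 cells. Whether Stab1 moved with the share of endothelial RNA was not tested. Cd68 was the macrophage marker that moved, at -2.29 ± 0.22. Nr2f2 differed by -0.52 ± 0.15 (adjusted p = 0.0377), with replicate 1 the lowest of the Norrin arrays at 8.86 and the others at 9.58 and 9.55, against 9.69, 9.92 and 9.95 with control cells. With adjustment over all probe sets, none of the 6 Nr2f2 probe sets passed. The main one then had an adjusted p of 0.0551 by limma, and the other 5 differed by -0.35 to 0.39. Without wild type Norrin replicate 1 the Nr2f2 difference was -0.29 (adjusted p = 0.113), and without wild type control replicate 2 or 3 the call was lost too (adjusted p = 0.107 and 0.114). Leaving out any 1 of the 3 Fz4-/- control arrays or Fz4-/- Norrin replicate 2 or 3, which enter the fit's spread, gave adjusted p from 0.0511 to 0.0540.

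Lyve1 read 2.33, 2.51 and 2.50 with Norrin and 2.81, 2.93 and 2.69 with control HEK293 cells in wild type co-cultures, -0.36 ± 0.10 (adjusted p = 0.0329). Wild type co-culture arrays placed Lyve1 between the 6.79th and 22.9th percentile of genes. The call was lost without any 1 of the 3 Norrin arrays, or without control replicate 1 or 2 (adjusted p from 0.0544 to 0.133), and the second probe set differed by -0.01. In Fz4-/- co-cultures none of the 8 genes passed by limma (0.456% of all genes did, and 3 of the 8 had an unadjusted p under 0.05, against 8.54% of all genes), and Lyve1 was 0.33 ± 0.10 (adjusted p = 0.278), at 8.95, 8.88 and 8.94 with Norrin and 8.66, 8.60 and 8.50 with control cells. In the same cells Stab1 averaged 8.14 with Norrin and 7.81 with control cells, 0.32 ± 0.14 (adjusted p = 0.524), and Nr2f2 averaged 9.01 with Norrin and 9.42 with control cells, -0.40 ± 0.15 (adjusted p = 0.427). The arrays of the 2 conditions did not overlap for these 3 genes or for Flt4, and the same held for 19.5% of all genes. The genotype difference in the Norrin response passed for 1 of the 8 genes, Lyve1, at 0.70 ± 0.15 (adjusted p = 0.0154, 2.12% of all genes passing), and the second Lyve1 probe set gave 0.25 ± 0.17 (adjusted p = 0.699). The call was lost without Fz4-/- control HEK293 replicate 3 (0.65, adjusted p = 0.0546). Without wild type Norrin replicate 1, the genotype difference in the Stab1 response passed as well (-0.73, adjusted p = 0.0248), against -0.57 ± 0.19 with all arrays (adjusted p = 0.187). The plot of levels in co-cultures shows the groups.

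**Figure D4:**
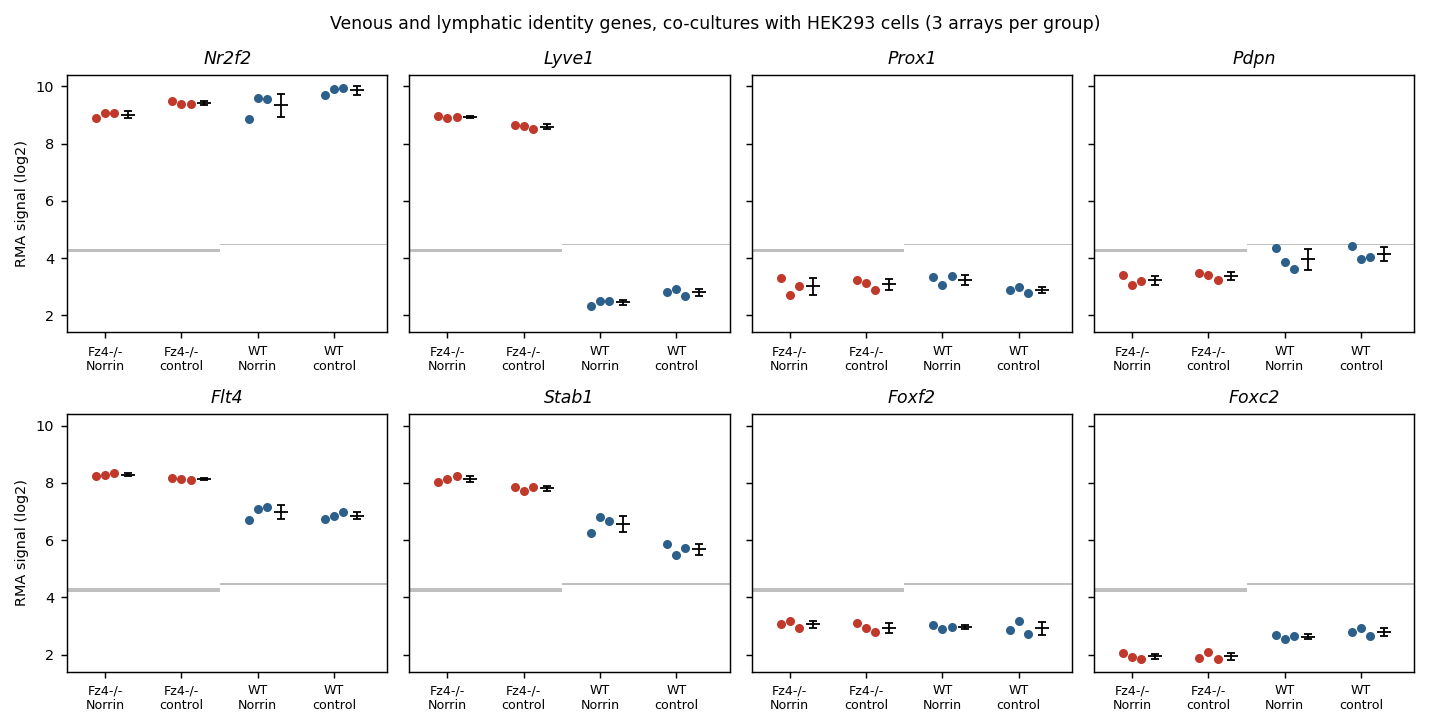
Log2 RMA signal of the 8 listed genes in co-cultures, 3 arrays per group (points) with mean and SD. Grey bands give the range of the median gene. Lyve1 lies at 8.50 to 8.95 in Fz4-/- co-cultures and at 2.33 to 2.93 in wild type co-cultures.

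Around these genes, Norrin in wild type co-cultures went with 2 higher and 4 lower genes of the 14 on the venous list, 4 higher and 2 lower of 23 on the lymphatic list, and 4 higher and 1 lower of 13 on the VEGF-C list, against 5.39% of all genes higher and 4.18% lower. Selp was -2.91 ± 0.16, and Nrp2 was -0.63 ± 0.10. Sox18, a SoxF factor upstream of Prox1 in the mouse, was 0.92 ± 0.18, and Hhex, a homeobox factor of lymphatic development, was 0.58 ± 0.11. Nrp1, the neuropilin of arterial endothelium, was 2.17 ± 0.21, so the neuropilins changed in opposite directions. In Fz4-/- co-cultures 1 gene of the venous list (Selp, -0.96 ± 0.16) and 1 of the lymphatic list (Thy1, -0.71 ± 0.13) were lower and none was higher, against 0.456% of all genes passing in either direction.

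In co-cultures the genotypes were not tested, for the reason given above. Lyve1 averaged 8.76 in Fz4-/- co-cultures and 2.63 in wild type co-cultures, with no overlap. With control HEK293 cells against gelatin, its 2 probe sets differed by -7.00 and -6.14 in wild type cells. In Fz4-/- cells they differed by -3.72 and -3.80. The medians of the same differences over all genes were -1.55 in wild type and -1.79 in Fz4-/- cells. Stab1 averaged 7.98 in Fz4-/- and 6.12 in wild type co-cultures, with no overlap. Flt4 averaged 8.21 in Fz4-/- and 6.92 in wild type co-cultures, again with no overlap. Foxc2 and Pdpn were lower in Fz4-/- co-cultures, also with no overlap. Foxc2 averaged 1.94 in Fz4-/- and 2.71 in wild type co-cultures, the opposite direction to single cultures. Those Foxc2 readings were near the bottom of the array. They lay between the 1.67th and 5.84th percentile of genes in Fz4-/- and between the 14.6th and 22.8th in wild type co-cultures. Pdpn averaged 3.29 in Fz4-/- and 4.04 in wild type co-cultures. The share of all genes without overlap between these genotypes was not counted. Foxf2 and Prox1 overlapped. Nr2f2 overlapped too on its main probe set, at 9.21 in Fz4-/- and 9.59 in wild type co-cultures. Of its other 5, most read higher in Fz4-/- co-cultures with no overlap. Their ranges were 6.24 to 6.72 against 5.25 to 5.95 in wild type, and 4.35 to 4.76 against 3.02 to 3.80. Next came 3.52 to 3.95 against 2.95 to 3.48, and 4.03 to 4.48 against 2.05 to 2.69. The last overlapped, at 4.25 to 4.64 against 4.25 to 5.08. The main Nr2f2 probe set stood apart from the others: in wild type cells it was 0.74 higher with control HEK293 cells than on gelatin, while the other 5 differed by -2.66 to -2.04 and the median of the same difference over all genes was -1.55. In Fz4-/- cells the main probe set differed by -0.26, the other 5 by -3.43 to -0.74, and the median of the difference over all genes was -1.79. Whether human NR2F2 RNA reached that probe set was not tested.

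Over the 12 single-culture arrays, Pearson's r between the 5 genes higher in Fz4-/- cells lay between 0.80 and 0.95 over 10 pairs. This is a description of arrays that share genotype and medium. The genes whose pattern was most like Nr2f2 were Il6st (r = 0.96), Plpp3 (0.95) and Adipor2 (0.95). For Lyve1 they were Serpinb6b (0.99), Slco3a1 (0.98) and Rnf41 (0.98). For Stab1 they were Trp53i11, Gpx7 and Pigx (0.99 each). For Foxc2 they were Tbx18 (0.99), Supt16 (0.98) and Lcmt2 (0.98), and for Foxf2 they were Irak3, Trpv2 and Gdpd3 (0.99 each). In co-cultures the genes most like Lyve1 were Slfn4, Casp1 and Odc1 (r of 1.00 each). Those most like Stab1 were Plscr3, Hs6st2 and Kdr (0.99 each), and those most like Nr2f2 were Dhx38 (0.97), Palm (0.96) and Ergic3 (0.95). The co-culture arrays also share genotype, with scales that differ by genotype, so a high r for Lyve1 mainly marks its gap between genotypes.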

How the data were processed

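The 24 arrays of mouse retinal endothelial cells were deposited as log2 expression values, which the authors made with RMA, per the submitters' processing notes; its version is not given in the sources used here. Probe sets were named through the 2016 platform annotation: of 45101, 64 controls were left out, 932 had several symbols and 9160 none, and 34945 had 1 symbol, of which 34741 matched the reference by gene ID. Of several probe sets the one with the highest mean over all arrays stood for a gene. limma 3.58.1 in R 4.3.3 was fitted to the 12 single cultures and to the 12 co-cultures apart, with 1 mean per group, 8 residual degrees of freedom and Benjamini-Hochberg adjustment over 18193 genes (threshold 0.05). The script was tested on simulated data. For arrays, their number (3 per group) limits the precision, and an exact permutation test of 3 against 3 cannot go below p = 0.1. The members and lists were chosen with earlier results of these data known. Named genes were the 9 members, up to 4 genes per list and comparison with the lowest adjusted p past the threshold, and the 3 genes most alike to each member. Deviations of same-numbered arrays correlated at r of 0.10 or more in the 4 single-culture comparisons and the wild type Norrin comparison. In the Fz4-/- Norrin comparison r was -0.19 to 0.01. The own number gave the highest r in 4 of 6 checks for genotype on gelatin and 5 of 6 on Matrigel. For Matrigel against gelatin it did so in 2 of 6 in wild type and 3 of 6 in Fz4-/- cells. For Norrin it did so in 4 of 6 in wild type and 0 of 6 in Fz4-/- cells. Pairing by number was thus not shown throughout. Alternatives covered normalization, probe set choice, filters, variance model, the replicate block and left-out arrays.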

Additional observations from a re-analysis of the deposited data

Results flagged for a closer look

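On 1 of its 2 probe sets, the Norrin response of Lyve1 differed between Fz4-/- and wild type co-cultures by a test of the difference itself, at 0.70 ± 0.15 on the log2 scale (limma, adjusted p = 0.0154). It was higher with Norrin in 3 of 3 Fz4-/- arrays and lower with Norrin in 3 of 3 wild type arrays than in every control array of the same genotype. Arrays with and without Norrin did not overlap for 19.5% of all genes in Fz4-/- and 21.4% in wild type co-cultures. The adjusted p ranged from 0.00998 to 0.170 over the alternatives. The wild type change of -0.36 was measured at signals of 2.33 to 2.93, between the 6.79th and 22.9th percentile of genes, where background limits the reading. The second Lyve1 probe set changed by -0.01 in wild type co-cultures, and its difference between genotypes was 0.25 ± 0.17 (adjusted p = 0.699).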

How the results depend on the processing

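Counts of listed genes past the threshold moved as follows, with the share of all genes called in the same setting in brackets. Fz4-/- against wild type on gelatin gave 3 among genes above the median level (4 measured, 25.6%) and 3 with replicates 2 and 3 averaged (3.67%). It gave 4 with the mean of probe sets (15%) and 4 without probe sets named with an _s_at, _x_at or _a_at ending (7 measured, 14.1%). That setting left out Stab1, whose 1 probe set has the _a_at ending. On Matrigel it gave 3 above the median level (4 measured, 26.5%) and 4 without those probe sets (7 measured, 15%). For Matrigel against gelatin, wild type cells gave 2 with replicates 2 and 3 only (chosen after seeing the data, 28%). Fz4-/- cells gave 1 with median centring (17.6%) and 0 above the median level (4 measured, 18.1%). They gave 0 with replicates 2 and 3 averaged (3.91%) and 3 with replicates 2 and 3 only (30.2%). For Norrin in wild type cells, 4 settings each gave 1. These were median centring (9.1%), the mean of probe sets (8.34%), the compared arrays alone (4.18%) and replicates 2 and 3 averaged (3.8%). Quantile normalization (11.7%), testing every probe set (8.32%) and replicates 2 and 3 only (11.1%) each gave 2. Leaving out probe sets with those name endings also gave 2 (7 measured, 8.49%). For the genotype difference in the Norrin response, the mean of probe sets gave 0 (1.92%). Replicates 2 and 3 averaged (0.495%) and replicates 2 and 3 only (2.47%) gave 0 too. Leaving out 1 array gave 4 to 5 on gelatin (9.87% to 17%) and 5 on Matrigel (10.5% to 17.5%). For Matrigel in Fz4-/- cells it gave 0 to 2 (12.8% to 20.8%). For Norrin in wild type cells it gave 1 to 3 (6.96% to 11.9%), and for the Norrin difference 0 to 2 (1.28% to 3.09%). It gave 0 for Matrigel in wild type cells (11.7% to 20.4%) and for Norrin in Fz4-/- cells (0.198% to 0.687%). The Matrigel difference between genotypes gave 0 as well (0.011% to 0.0275%). The replicate block kept every count of listed genes (5, 5, 0, 2, 0, 3, 0 and 1) and changed no call. The share of all genes called by genotype was then 22.7% on gelatin and 24.1% on Matrigel. For the Matrigel response it was 26.4% in wild type cells, 28.2% in Fz4-/- cells and 0.044% for the genotype difference. For the Norrin response it was 11.1% in wild type cells, 0.544% in Fz4-/- cells and 2.59% for the genotype difference. With replicates 2 and 3 averaged the shares were 3.67% on gelatin and 4.05% on Matrigel, and with replicates 2 and 3 only they were 27% on gelatin and 26.7% on Matrigel. Stab1, Foxf2 and Foxc2 kept the genotype calls in 22 of 22 alternatives each, and no listed gene's called difference was reversed. Nr2f2 on gelatin lost its call with the mean of probe sets (0.45, adjusted p = 0.0528) and with replicates 2 and 3 averaged (0.54, adjusted p = 0.165), and Lyve1 lost its call with replicates 2 and 3 averaged (2.67, adjusted p = 0.0609). Nr2f2 lost its call in 12 of 23 alternatives for Matrigel in Fz4-/- cells and in 13 of 23 for Norrin in wild type cells, and Lyve1 in 11 of 23 for Norrin in wild type cells. The cause was not tested. Signal over background limits Prox1, Pdpn, Foxf2, Foxc2 and wild type co-culture Lyve1.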
